A study of Rattus norvegicus with 47 samples.

Results

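The mitochondrially encoded mRNAs of the prefrontal cortex of newborn rats were followed across 3 gestational flame retardant exposures. Members were chosen by a list of 10 Ensembl gene IDs, among 32883 gene IDs in the count table. All 10 were in the table, had reads in all 47 libraries and passed the filter on low counts. The list runs Mt-nd1 (ENSRNOG00000030644), Mt-nd2 (ENSRNOG00000031033), Mt-co1 (ENSRNOG00000034234), Mt-co2 (ENSRNOG00000030371) and Mt-atp8 (ENSRNOG00000033299). It continues with Mt-atp6 (ENSRNOG00000031979), Mt-co3 (ENSRNOG00000030700), Mt-nd4 (ENSRNOG00000029707), Mt-nd5 (ENSRNOG00000029971) and Mt-cyb (ENSRNOG00000031766). The names were paired with the IDs by that list and were not checked against an annotation. Mt-nd3, Mt-nd4l and Mt-nd6 were not in the list and were not analysed here.

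Tissue was collected on postnatal day 1 from offspring exposed through gestation, by dosing of the dam once a day. The controls carried the label "Control" with no vehicle named. The BFR group received 1000 µg per day of the brominated esters EH-TBB and BEH-TEBP, and the OPFR group 1000 µg per day of triphenyl phosphate and isopropylated triphenyl phosphate. The FM550 group received 2000 µg per day of FM550, the commercial FireMaster mixture. That is the total of its brominated and organophosphate parts, and it was above the total dose of BFR or OPFR. The amount of each part within the FM550 dose was not examined here. Control, BFR and FM550 each had 6 females and 6 males, and OPFR had 5 females and 6 males. The labels give no strain, litter or number of animals per library. The study's title asks whether effects of the mixture differ by sex and how far they come from its organophosphate esters.

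Mitochondrial DNA is a small circular genome that encodes core subunits of the respiratory chain and the ATP synthase, while the remaining subunits are made from nuclear genes. It is transcribed as long precursors that are cut at the tRNAs between the coding sequences, so the mRNAs start from common transcripts and their levels are then set apart by processing and decay. Mt-atp8 and Mt-atp6 overlap and share 1 mature mRNA in mammals, as do Mt-nd4l and Mt-nd4. Mitochondrial mRNAs carry short poly(A) tails, and these libraries were made from poly(A)-selected RNA. Developing cortex depends on oxidative phosphorylation as neurons mature.

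Libraries held 41.1 to 73.4 M counted reads, and each member had between 1727 (Mt-nd4) and 366922 (Mt-co1) reads in a library. Controls are shown in 2 runs by the number in the sample title, 1 to 7 and 8 to 12, because numbers 1 to 7 were known to stand apart from the other controls. This first run includes 5 of the 6 control males but 2 of the 6 control females, and no exposed sample. Exposure also follows the numbers: BFR is 13 to 24, OPFR 25 to 35 and FM550 36 to 47. Whether the numbers mark a processing order is not stated, and the run 1 to 7 cannot be told apart from whatever made it differ. Markers of the labelled tissue were not read, because the sources used here pair no other ID with a name.

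Together the 10 mRNAs took overlapping shares of the library in all exposure groups. They accounted for 1.79 ± 0.14% of all counts (SD, n = 47), from 1.49% in a control female to 2.11% in an FM550 female. The share was 1.73 ± 0.17% in controls 1 to 7 (SD, n = 7) and 1.81 ± 0.092% in controls 8 to 12 (SD, n = 5). It was 1.81 ± 0.14% in BFR (SD, n = 12), 1.77 ± 0.10% in OPFR (SD, n = 11) and 1.82 ± 0.17% in FM550 (SD, n = 12). The ranges of these sets overlapped, and the means lay within 1 SD of each other. Female means ran from 1.74% in controls to 1.84% in BFR, and male means from 1.76% in OPFR to 1.82% in FM550. In bulk tissue, fewer cells of a type and less RNA per cell cannot be told apart.

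**Figure D1:**
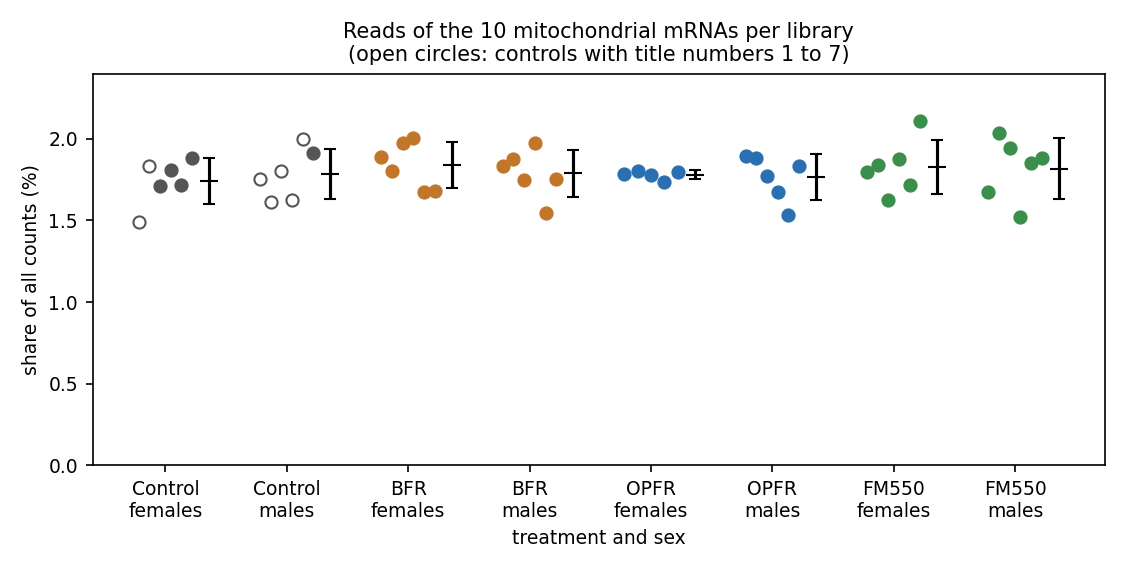
Percent of all counts taken by the 10 mitochondrially encoded mRNAs (y axis) in each library (points), by exposure and sex; the cross beside each group gives the mean and SD. Open circles are controls 1 to 7. All libraries lie between 1.49% and 2.11%, and the ranges of the groups overlap.

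Within that share the reads were divided unevenly. Mt-co1, which encodes the catalytic subunit of cytochrome c oxidase, took 24.9% of the members' reads, followed by Mt-cyb (14.5%), Mt-co3 (13.8%) and Mt-atp6 (12.7%). Mt-atp8 took 1.40% and Mt-nd4 0.266%. These are shares of reads and not levels per length, since transcript lengths were not used here. Reads in the stretch shared by Mt-atp8 and Mt-atp6, and reads that match nuclear copies of mitochondrial DNA, can be counted for either gene or dropped, and the counting rule is not given in the sources used here. The counts of the members, Mt-atp8, Mt-atp6 and Mt-nd4 included, are therefore uncertain as measures of the mRNAs. How many reads of each member are involved was not tested.

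Most members varied little between libraries. The highest CPM (reads scaled to a common library size) was 1.36 times the lowest for Mt-atp6 and between 1.46 and 1.70 times for Mt-nd1, Mt-co1, Mt-co2, Mt-co3, Mt-nd5 and Mt-cyb. It was 2.01 times for Mt-nd2, 2.39 times for Mt-nd4 and 3.06 times for Mt-atp8. On the log2 CPM scale the SD of Mt-atp8 over the 47 libraries was 0.44, at percentile 81.2 of all 17135 genes tested, and that of Mt-nd4 was 0.31, at percentile 69.7. The 28 pairs that leave out Mt-atp8 and Mt-nd4 had Pearson correlations of log2 CPM from 0.072 to 0.91, with a median of 0.74, over 47 libraries. Without numbers 1 to 7 these pairs ran from 0.55 to 0.94, with a median of 0.83. Mt-atp8 and Mt-nd4 went opposite ways, with r = -0.78 over 47 libraries and -0.61 over the 40 without numbers 1 to 7. These correlations share library depth and scaling and are given as descriptions.

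**Figure D2:**
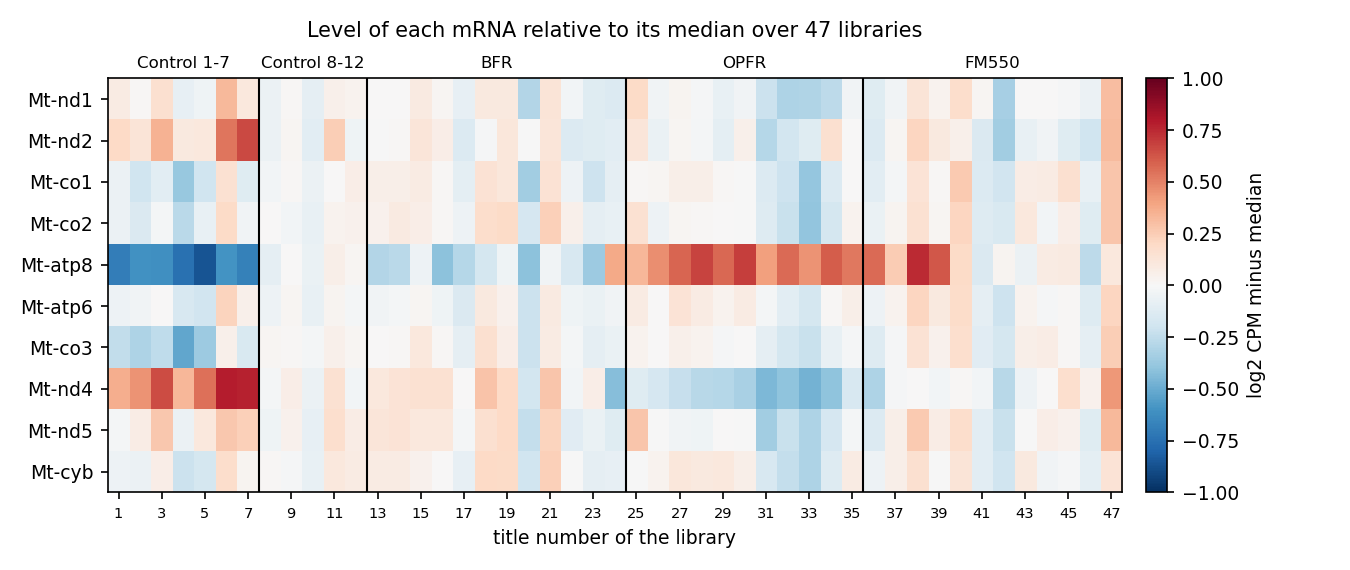
Log2 CPM of each member (rows) in each library (columns, ordered by the number in the sample title), shown as the difference from that member's median over 47 libraries. Mt-atp8 is low in numbers 1 to 7 and high in 24 to 39, and Mt-nd4 shows the opposite in 1 to 7.

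Mt-atp8, Mt-nd4 and Mt-nd2 were the only members called between exposed and control cortex, Mt-atp8 as higher and the other 2 as lower. Calls used edgeR's quasi-likelihood test with Benjamini-Hochberg adjustment over all genes, at an adjusted p below 0.05, in 16 comparisons. With both sexes averaged, 3 of 10 members were called for OPFR (1 higher, 2 lower), where 19.3% of all genes tested were called. For FM550, 3 of 10 were called (1 higher, 2 lower) against 8.13% of all genes. For BFR, 1 of 10 was called (lower) against 12.4% of all genes. Over the 10 members the median log2 fold change was -0.02 for OPFR, 0.03 for FM550 and 0.02 for BFR, beside 0.010, 0.0012 and 0.0077 over all genes. The exposures share their control libraries, so their calls are not separate evidence.

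Mt-atp8 encodes a small membrane subunit of ATP synthase (complex V). In controls 8 to 12 it measured 220.4, 234.4, 224.2, 244.6 and 237.3 CPM, and in controls 1 to 7 it ran from 128.7 through a median of 146.5 to 154.5 CPM. These runs of the control group did not overlap, and the first was lower. BFR libraries ran from 176.1 through a median of 201.0 to 305.4 CPM, with the highest value in the last BFR library, number 24. The 5 OPFR females measured 323.4, 374.7, 377.6, 347.7 and 356.0 CPM. The 6 OPFR males ran from 295.0 through 328.7 to 350.3 CPM. Every OPFR library was above every control. FM550 females ran from 196.0 through 238.8 to 360.3 CPM, and FM550 males from 239.2 through 258.8 to 393.8 CPM, overlapping with both OPFR and controls 8 to 12.

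Against all controls, Mt-atp8 was higher in OPFR by 0.91 ± 0.11 on the log2 scale (SE; a fold of 1.89; edgeR adjusted p = 5.40e-08). In FM550 it was higher by 0.59 ± 0.10 (SE, edgeR adjusted p = 2.86e-04). In BFR the log2 difference was 0.21 ± 0.10 (SE), which was not called (edgeR adjusted p = 0.174). By sex, OPFR females differed by 0.83 ± 0.15 (edgeR adjusted p = 0.00138) and OPFR males by 1.00 ± 0.15 (edgeR adjusted p = 1.75e-05). FM550 males differed by 0.83 ± 0.15 (edgeR adjusted p = 4.63e-04). FM550 females had a difference of 0.34 ± 0.15 that was not called (edgeR adjusted p = 0.774). With a term in the model for numbers 1 to 7, the averaged FM550 difference was 0.21 ± 0.12 (SE, edgeR adjusted p = 0.999) and that of FM550 males 0.28 ± 0.16 (SE, edgeR adjusted p = 1.00), so both calls ended. With that term OPFR stood at 0.54 and was still called with sexes averaged, while OPFR males at 0.45 ± 0.16 were not (edgeR adjusted p = 0.999). The difference between the sexes in the FM550 response was itself not called (log2 -0.49 ± 0.21 SE, edgeR adjusted p = 0.512).

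Mt-nd4 encodes a membrane subunit of complex I, the NADH dehydrogenase that feeds electrons into the chain. It measured 45.4, 48.1, 44.2, 51.2 and 45.0 CPM in controls 8 to 12, and 57.8 to 79.4 CPM with a median of 67.4 in controls 1 to 7. The runs again did not overlap, and the first was higher. BFR ran from 34.2 (number 24) through 50.1 to 56.1 CPM. The 5 OPFR females measured 40.9, 37.8, 36.7, 34.8 and 34.8 CPM, and the OPFR males ran from 33.2 through 38.5 to 42.2 CPM. Every OPFR library was below every control. FM550 ran from 37.1 through 45.7 to 62.0 CPM and overlapped with controls.

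Against all controls, Mt-nd4 was lower in OPFR, at -0.66 ± 0.085 on the log2 scale (SE; a fold of 0.634; edgeR adjusted p = 3.91e-07). In FM550 it was -0.35 ± 0.083 (SE, edgeR adjusted p = 0.00537) and in BFR -0.28 ± 0.083 (SE, edgeR adjusted p = 0.0202). The males were called in all 3 exposures, at -0.79 ± 0.12 in OPFR (edgeR adjusted p = 1.94e-05), -0.57 ± 0.12 in FM550 (edgeR adjusted p = 0.00169) and -0.46 ± 0.12 in BFR (edgeR adjusted p = 0.0106). Among females only OPFR was called, at -0.52 ± 0.12 (SE, edgeR adjusted p = 0.0115). The OPFR female call was lost without control female 2 (number 7; edgeR adjusted p = 0.0723) or OPFR female 4 (0.0532), and the averaged BFR call without control female 2 (0.0688). With a term for numbers 1 to 7, or without those libraries, no Mt-nd4 call against controls was left. The averaged BFR value then turned positive (0.031 and 0.0060), FM550 stood at -0.037 and -0.069, and OPFR at -0.34 and -0.37. Of the libraries in the run with high Mt-nd4, 5 are control males and 2 control females.

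Mt-nd2, another membrane subunit of complex I, measured 1273, 1345, 1232, 1576 and 1292 CPM in controls 8 to 12 and ran from 1421 through 1526 to 2096 CPM in controls 1 to 7. The exposed libraries ran from 1208 to 1444 CPM in BFR, 1092 to 1481 in OPFR and 1043 to 1650 in FM550, each overlapping with both runs of controls. It was called lower with sexes averaged in OPFR (log2 -0.23 ± 0.071 SE, edgeR adjusted p = 0.0221) and FM550 (-0.21 ± 0.070 SE, edgeR adjusted p = 0.0470). It was also lower in OPFR males (-0.32 ± 0.098 SE, edgeR adjusted p = 0.0258) and FM550 males (-0.32 ± 0.098 SE, edgeR adjusted p = 0.0278). In BFR males the log2 fold change was -0.27 ± 0.098 and was not called (edgeR adjusted p = 0.0679). With a term for numbers 1 to 7, or without them, all 4 calls of Mt-nd2 ended, and the averaged values were -0.055 and -0.14 in OPFR and -0.043 and -0.12 in FM550. The averaged call was also lost on leaving out 1 library in 3 of 23 fits for OPFR and in 13 of 24 for FM550. Without control female 2 the edgeR adjusted p was 0.0687 for OPFR and 0.152 for FM550. Without control male 5 (number 6) it was 0.0914 in OPFR males and 0.103 in FM550 males.

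**Figure D3:**
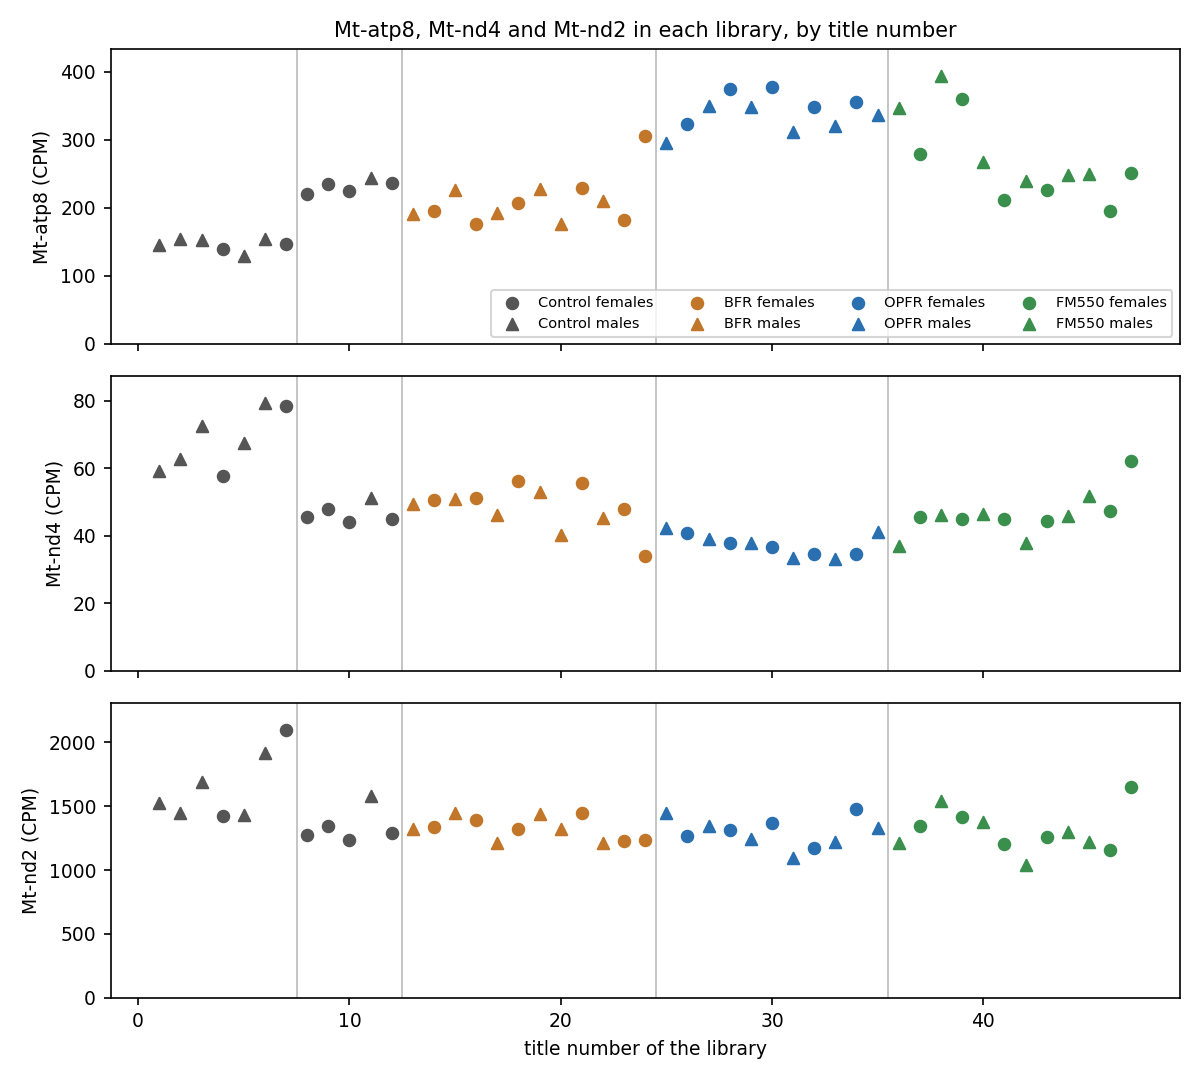
CPM of Mt-atp8, Mt-nd4 and Mt-nd2 (y axes) in the 47 libraries, ordered by the number in the sample title (x axis) and marked by exposure and sex. Mt-atp8 lies between 128.7 and 154.5 CPM in numbers 1 to 7 and between 279 and 394 CPM in numbers 24 to 39, which hold 1 BFR, all OPFR and 4 FM550 libraries.

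Counts of members called were taken within each sex as well. Among males, 1 of 10 was called for BFR, 3 of 10 for OPFR and 3 of 10 for FM550, with 9.95%, 12.5% and 11.8% of all genes called. Among females, 2 of 10 were called for OPFR (3.1% of all genes), and 0 of 10 for BFR and for FM550 (0% of all genes in each). In edgeR, 0 members had an unadjusted p below 0.05 for BFR females and 1 (Mt-atp8) for FM550 females, and neither DESeq2 nor limma voom called any member there. No member differed in its response between the sexes in edgeR (0 of 10 for each exposure, 0% of all genes), with 1, 0 and 2 members at an unadjusted p below 0.05 for BFR, OPFR and FM550. DESeq2 called 0 members there, and limma voom called Mt-nd4 for FM550 (adjusted p = 0.0315). Females and males with treatments averaged had 0 of 10 members called (0.128% of all genes), with 0 at an unadjusted p below 0.05. The shares of all genes here are those at the adjusted threshold. None at the unadjusted threshold is given, so the unadjusted counts are not read as results about the members.

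The other 7 members were called in none of the 16 edgeR comparisons with all libraries. DESeq2 called Mt-nd5 in OPFR with sexes averaged (adjusted p = 0.0488), and limma voom called Mt-co3 in 4 comparisons with controls (adjusted p from 0.0351 to 0.0498). Leaving out OPFR male 1 brought Mt-nd1 and Mt-nd5 past the edgeR threshold in OPFR, and leaving out control male 6 did so for Mt-co3 in BFR and FM550, with sexes averaged. Mt-co3 in FM550 averaged was also called without control male 5, FM550 female 3 or FM550 male 4. The same omissions called Mt-nd5 in OPFR males (without OPFR male 1) and Mt-co3 in FM550 males (without control male 6). Mt-nd5 averaged 1319 CPM in OPFR 25 to 30, 1111 CPM in OPFR 31 to 35 and 1315 CPM in controls 8 to 12. Mt-nd1 averaged 1585, 1348 and 1561 CPM in the same runs, which are given as a description. For OPFR with sexes averaged the log2 fold changes of these 7 members lay between -0.16 and 0.093 (SE 0.046 to 0.064), and the lowest edgeR adjusted p was 0.0716, for Mt-nd5, a complex I subunit. For FM550 they lay between -0.047 and 0.16, with the lowest edgeR adjusted p of 0.0710 for Mt-co3, a core subunit of cytochrome c oxidase (complex IV). For BFR they lay between -0.059 and 0.13, with the lowest edgeR adjusted p of 0.112, also for Mt-co3. The 95% intervals of these 7 members reached from -0.29 to 0.27 in the 3 averaged comparisons. Mt-atp6, the ATP synthase subunit whose mRNA also carries Mt-atp8, measured 2238 ± 220 CPM in controls 1 to 7 (SD, n = 7) and 2237 ± 70.7 in controls 8 to 12 (SD, n = 5). It measured 2224 ± 137 in BFR (SD, n = 12), 2298 ± 142 in OPFR (SD, n = 11) and 2316 ± 216 CPM in FM550 (SD, n = 12). The ranges of these 5 sets overlapped, unlike those of Mt-atp8. Mt-cyb, the only mitochondrially encoded subunit of complex III, measured 2544 ± 257 CPM in OPFR (SD, n = 11) and 2632 ± 137 CPM in controls 8 to 12 (SD, n = 5), with overlapping ranges. Mt-co3 measured 2138 ± 269 CPM in controls 1 to 7 (SD, n = 7) and 2565 ± 41.1 CPM in controls 8 to 12 (SD, n = 5).

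**Figure D4:**
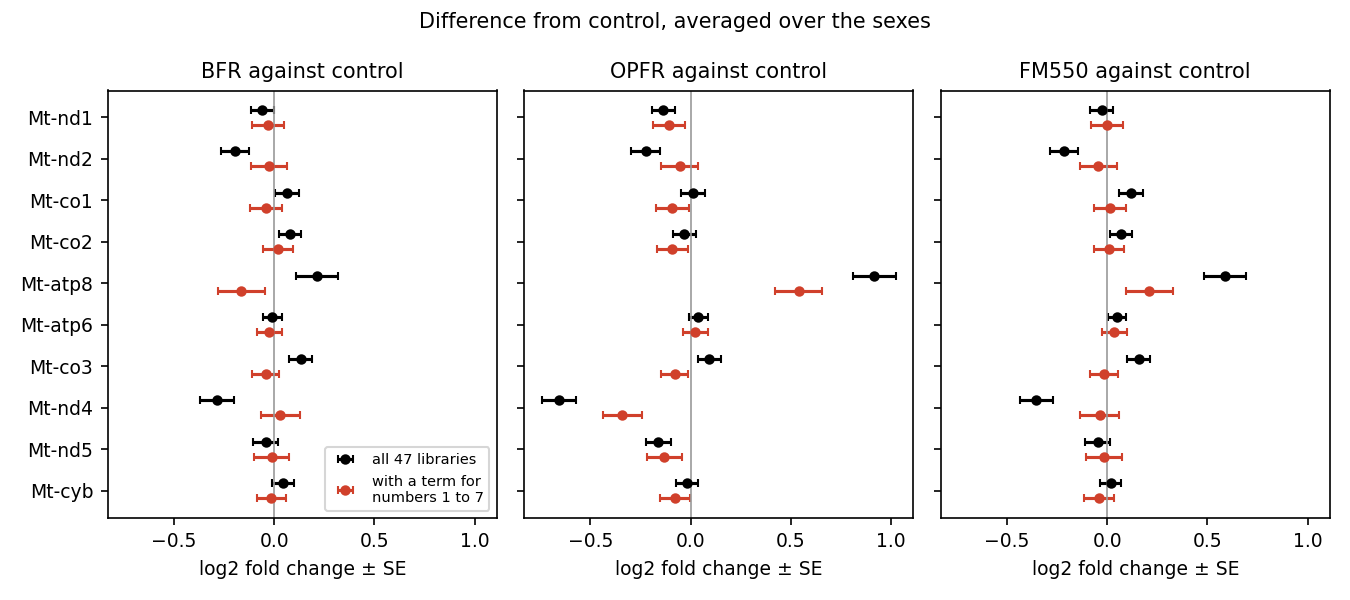
Log2 fold change against controls (x axis, with sexes averaged) of the 10 members (y axis) for BFR, OPFR and FM550 from edgeR, with bars of 1 SE, in the fit without and with a term for numbers 1 to 7. Mt-atp8 stands at 0.91 in OPFR and 0.54 with the term, while the 7 members other than Mt-atp8, Mt-nd4 and Mt-nd2 lie between -0.16 and 0.16 without it.

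The ratio of Mt-atp8 to Mt-atp6 does not depend on library scaling. Controls 1 to 7 had 6.55 ± 0.39 Mt-atp8 reads per 100 Mt-atp6 reads (SD, n = 7) and controls 8 to 12 had 10.4 ± 0.24 (SD, n = 5). BFR libraries 13 to 23 had 9.03 ± 0.61 (SD, n = 11), while BFR number 24 alone had 13.8. OPFR had 14.8 ± 1.2 (SD, n = 11). FM550 libraries 36 to 39 had 15.9, 12.0, 15.0 and 14.9, and FM550 libraries 40 to 47 had 10.4 ± 0.94 (SD, n = 8). These runs of BFR and FM550 were set after the values of Mt-atp8 were seen, and number 24 is 1 library, so the ratios by run are a description. For Mt-nd4, reads per 100 Mt-nd5 reads were 4.84 ± 0.23 in controls 1 to 7 (SD, n = 7), 3.56 ± 0.13 in controls 8 to 12 (SD, n = 5) and 3.08 ± 0.18 in OPFR (SD, n = 11). They were 3.71 ± 0.13 in BFR 13 to 23 (SD, n = 11) and 2.90 in number 24. In FM550 they were 3.22 ± 0.18 in numbers 36 to 39 (SD, n = 4) and 3.64 ± 0.29 in 40 to 47 (SD, n = 8).

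Sets of libraries were also compared by whether their ranges overlap. Numbers 1 to 7 did not overlap with the other 40 libraries for 1 member, Mt-atp8 (lower), as for 2.28% of all genes. They did not overlap with the other 5 controls for Mt-atp8 (lower) and Mt-nd4 (higher), as for 12.8% of all genes. Numbers 24 to 39, a run chosen after the values of Mt-atp8 were seen, did not overlap with the other 31 libraries for Mt-atp8, as for 0.0409% of all genes, 7 in number. Within FM550, libraries 36 to 39 (347.4, 279.1, 393.8 and 360.3 CPM) lay above libraries 40 to 47 (196.0 to 268.0 CPM) for Mt-atp8, as for 1.51% of all genes. This split was also chosen after the values of Mt-atp8 were seen. For the run 24 to 39 and for this split, the lack of overlap of Mt-atp8 was therefore fixed in advance. The shares of all genes beside them do not measure how rare it is. OPFR and FM550 36 to 39 overlapped for all 10 members, with 0.344% of all genes not overlapping. OPFR did not overlap with controls 8 to 12 for Mt-atp8 (higher) and Mt-nd4 (lower), as for 0.957% of all genes, nor with all 12 controls for the same 2 members, as for 0.63%. BFR and FM550 overlapped with controls 8 to 12 for all 10 members, with 0.00584% and 0.07% of all genes not overlapping. Exposure and number run together, so the part of either in the OPFR level of Mt-atp8 cannot be told apart.

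With a term in the model for numbers 1 to 7, the only member called against controls was Mt-atp8 in OPFR. With sexes averaged its log2 fold change was 0.54 ± 0.12 (SE, edgeR adjusted p = 0.0227), where 0.525% of all genes were called. In OPFR females it was 0.63 ± 0.13 (SE, edgeR adjusted p = 0.0108), where 1.42% of all genes were called. For BFR and FM550, and for OPFR males, 0 members and 0% of all genes were called in edgeR with that term. With the term, Mt-nd4 in OPFR stood at -0.34 ± 0.098 (SE, edgeR adjusted p = 0.102).

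With numbers 1 to 7 left out, Mt-atp8 was called in OPFR females (0.64 ± 0.14 SE, edgeR adjusted p = 0.0390; 0.382% of all genes called). With sexes averaged it was 0.52 ± 0.14 (SE) and not called (edgeR adjusted p = 0.144; 0.0222% of all genes called). For OPFR males and for BFR and FM550 in either sex, 0 members and 0% of all genes were called in edgeR. The male side of these fits rests on 1 control library, number 11, assumed to vary like the other groups.

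The direct comparisons between exposures do not use the controls. OPFR and BFR, at the same dose in µg per day, differed for 2 of 10 members, with 4.75% of all genes called. Mt-atp8 was higher in OPFR by 0.70 ± 0.11 on the log2 scale (SE; a fold of 1.63; edgeR adjusted p = 1.13e-04) and Mt-nd4 lower, at -0.37 ± 0.085 (SE; edgeR adjusted p = 0.00675). Without OPFR numbers 31 to 35 Mt-nd4 stood at -0.32 ± 0.10 (SE) and was not called (edgeR adjusted p = 0.135). FM550 and BFR differed for 0 of 10 members (0.204% of all genes), with Mt-atp8 at 0.37 ± 0.10 (SE, edgeR adjusted p = 0.112) and 1 member at an unadjusted p below 0.05. FM550 and OPFR differed for 0 of 10 members (0.00584% of all genes), with Mt-atp8 at -0.33 ± 0.11 (edgeR adjusted p = 0.135), Mt-nd4 at 0.30 ± 0.085 (edgeR adjusted p = 0.0975) and 2 members at an unadjusted p below 0.05. These shares of all genes are at the adjusted threshold, and none is given for the counts at an unadjusted p. The 95% intervals of the FM550 and OPFR difference were -0.54 to -0.11 for Mt-atp8 and 0.13 to 0.48 for Mt-nd4. For FM550 against BFR, Mt-atp8 was called by DESeq2 (adjusted p = 0.0495) and limma voom (adjusted p = 0.0113). For FM550 against OPFR, Mt-nd4 was called by DESeq2 (adjusted p = 0.0438), while limma voom called 0 members.

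Numbers 1 to 7 enter these comparisons only through the shared filter, scaling and estimate of spread, and with the term for them more members were called. OPFR and BFR then differed for the same 2 members (6.61% of all genes). FM550 and BFR differed for Mt-atp8 (edgeR adjusted p = 0.0207; 0.794% of all genes) and FM550 and OPFR for Mt-nd4 (edgeR adjusted p = 0.0442; 0.368% of all genes). With the libraries left out instead, neither was called (edgeR adjusted p = 0.0541 for Mt-atp8 and 0.0590 for Mt-nd4). In the FM550 group the 4 libraries numbered 36 to 39 held all values of Mt-atp8 above 268.0 CPM.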

How the data were processed

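Gene-level read counts of 47 rat libraries (poly(A)-selected, strand-specific kit, per the labels' protocols) were used as whole numbers, as deposited by the authors with no normalization. FastQC, featureCounts and DESeq2 are named in the submitters' processing notes. No aligner, genome build, annotation or strand setting is given in the sources used here. The 15 entries naming no gene held no value. Columns were matched to samples by title number.

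Genes were filtered with filterByExpr (minimum count 10, minimum total 15), which kept 17135. Libraries were scaled by TMM (factors 0.95 to 1.10), and 1 edgeR 4.0.16 quasi-likelihood model in R 4.3.3 gave each of 8 groups (treatment by sex) a mean. Tests were two-sided, with p-values adjusted over all genes tested. Standard errors came from the model's information matrix and its moderated dispersion. CPM used the TMM-scaled library sizes, and log2 CPM a prior count of 2. Alternatives were DESeq2 1.42.0, limma 3.58.1 voom with sample weights, other scalings, no filter, a term for or omission of title numbers 1 to 7, omission of OPFR libraries, and each library left out in turn.

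Counts of 17135 genes were simulated for OPFR against control with sexes averaged. There 74.6% of 67 genes changed 1.25-fold and 98.5% of 67 changed 1.5-fold were recovered, with 9 false calls in all. These rates describe the simulated counts alone. They do not measure false calls among the real libraries, where title numbers 1 to 7 stand apart from the other controls. In the real data 19.3% of all genes were called in this comparison, and 0.525% with a term for title numbers 1 to 7.

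The 10 members were taken by their IDs, all are named, and members, lists and alternatives were chosen with earlier results of these data known. The 2 other IDs named are those whose log2 CPM had the highest Pearson correlation with the members' mean log2 CPM over the 47 libraries. Lists of nuclear mitochondrial genes and cell type markers were not tested, because 0 IDs matched the reference gene table used here. Whether libraries stem from separate animals or litters is not stated, and the p-values then reflect the spread between these samples alone. The lowest chi-square per gene between libraries was 8.63, so none was a copy.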

Additional observations from a re-analysis of the deposited data

Results flagged for a closer look

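In 88 groups of 4 to 10 libraries (each member in each treatment and sex group, and the members' share of counts), 6 values lay far from the others of their group by Dixon's criterion. Chance marks about 1 in 20 groups. In females given FM550, replicate 6 had the highest Mt-nd1 (1943 CPM, others 1505 to 1614) and the highest Mt-nd4 (62.0 CPM, others 44.4 to 47.3). Among control females, replicate 2 (number 7) had the highest Mt-nd2 (2096 CPM, others 1232 to 1421) and replicate 1 (number 4) the lowest Mt-co3 (1767 CPM, others 2287 to 2574). Among control males, replicate 6 (number 11) had the highest Mt-atp8 (244.6 CPM), where the others, all numbered 1 to 7, measured 128.7 to 154.5 CPM. Among BFR females, replicate 6 (number 24) had the lowest Mt-nd4 (34.2 CPM, others 48 to 56.1). Why these libraries differed was not tested.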

How the results depend on the processing

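Scaling (RLE, none, or without the members) and the filter moved no count of members called by over 1.5 times and reversed the direction of no call. Without the filter the call of Mt-nd2 in FM550 averaged was lost. No paired analysis was possible because the replicate numbers were given in accession order and mark no pairs. With a term for numbers 1 to 7, counts fell to 0 for BFR, OPFR and FM550 males and for BFR and FM550 averaged, and to 1 for OPFR females and OPFR averaged. Without those libraries the same counts were 0, except 1 in OPFR females. Mt-nd4 in BFR with sexes averaged then changed sign, to 0.031 with the term and 0.0060 without the libraries. Counts for OPFR females were also 1 without OPFR females 4 and 5, without OPFR 31 to 35, and in limma voom. OPFR against BFR gave 1 without OPFR 31 to 35. For BFR males limma voom gave 3 (23% of all genes called) and DESeq2 2 (14.3%). For BFR averaged both gave 2 (19.9% and 16.8%), as did the fit without OPFR females 4 and 5 (14.3%). FM550 against BFR gave 1 with the term (0.794% of all genes called), in limma voom and in DESeq2. FM550 against OPFR gave 1 with the term (0.368%) and in DESeq2. The sex by FM550 interaction gave 1 in limma voom. The causes were not tested. Counts here, and DESeq2 or limma voom calls above, with no share of all genes beside them are not read as results about the members.

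Leaving out 1 library at a time gave 1 to 2 members for BFR males (2 without control male 6, with 18.1% of all genes called), 1 to 2 for OPFR females (1 without control female 2 or OPFR female 4), 0 to 4 for BFR averaged (0 without control female 2, with 7.37% of all genes, 4 without control male 6, with 18.8%, and 2 without any of control males 2 and 4, control females 3, 4, 5 and 6, and BFR male 2), 2 to 5 for OPFR averaged (5 without OPFR male 1, with 19.8%), 2 to 4 for OPFR males, FM550 males and FM550 averaged, and 0 to 1 for FM550 against BFR (1 without BFR female 6, with 0.8%). The share of all genes called ran from 6.62% to 18.8% for BFR averaged and from 13% to 23.1% for OPFR averaged. It ran from 5.49% to 18.1% for BFR males, 8.29% to 18.1% for OPFR males and 7.6% to 18.5% for FM550 males. For OPFR females it ran from 1% to 6.32%, for FM550 averaged from 4.62% to 13.6% and for FM550 against BFR from 0.0292% to 0.8%. Mt-atp8 in OPFR averaged ranged from 0.87 to 0.99 on the log2 scale and Mt-nd4 from -0.69 to -0.58. The call of Mt-nd2 was lost most often: with sexes averaged in FM550 its adjusted p rose to between 0.0535 and 0.152 in 13 such fits, and to 0.0663 without the filter. As a ratio to the counts outside the members, the share in OPFR females was 1.81%. Depth did not limit the members, of which the least counted, Mt-nd4, had at least 1727 reads in each library.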

Other observations

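Over the 12828 other IDs that averaged 1 or more in log2 CPM, ENSRNOG00000029042 had the highest correlation with the members' mean log2 CPM. Its Pearson r was 0.79 over 47 libraries and 0.87 over the 40 without numbers 1 to 7. The next was ENSRNOG00000029903, with r = 0.65 and 0.71. These libraries share scaling and depth, and the sources used here pair neither ID with a name.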
